A study of Mus musculus with 16 samples.

Results

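The class I antigen presentation pathway was followed through 10 genes, chosen by name: the heavy chain genes H2-K1 and H2-D1, the light chain gene B2m, the transporter and loading genes Tap1, Tap2 and Tapbp, the inducible proteasome subunit genes Psmb8, Psmb9 and Psmb10, and the regulator Nlrc5. All 10 were present among the 52916 symbols shared by every table, and all 10 passed the filter on low values in each comparison. The RNA came from HM1 tumours, a mouse ovarian cancer model, sequenced in bulk from 16 libraries. Whole tumour tissue gave 5 libraries with mannose supplementation and 5 control libraries without it. CD8 T cells sorted from such tumours gave 3 libraries with mannose and 3 control libraries. The labels used here give no strain, age, mannose dose, route or duration, no animal for any library, and no statement of whether any group received an antibody to PD-1, which the series title mentions. They do not say whether replicates came from separate animals, so the p-values cover only the variation among these libraries, which may be technical.

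Class I molecules show peptides from inside a cell to CD8 T cells. The proteasome cuts proteins into peptides, the Tap1 and Tap2 transporter carries the peptides into the endoplasmic reticulum, and tapasin, the product of Tapbp, holds empty class I molecules beside the transporter until a peptide is bound. A class I molecule is a heavy chain, such as the products of H2-K1 and H2-D1, joined to the light chain encoded by B2m. Interferon gamma is known to raise the whole set. It also induces Psmb8, Psmb9 and Psmb10, whose products take the places of the constitutive catalytic subunits encoded by Psmb5, Psmb6 and Psmb7. Nlrc5 is a transactivator that acts at a shared module of class I promoters.

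Promoter windows are shown for 4 members, because the heavy and light chain genes carry the textbook module on which Nlrc5 acts and because Tap1 and Psmb9 are read in opposite directions from a shared stretch. The windows are from RefSeq (build GRCm38.p6), hold 250 bases before and 50 bases from the annotated start, and were given for 8 of the 10 members, without Tap2 and Nlrc5. For H2-K1 there were 2 windows. That from 34000298 is printed, and that from 34000284 held the same motifs. Coordinates belong to these windows only, since the expression tables follow build GRCm39. Each sequence is written 5′ to 3′ along its gene, and capitals mark TGACG (the CREB and ATF family motif of the X box), CCAAT (the Y box), GGGATTCCC (a κB site) and GAAANNGAA (the core of an interferon response element), searched on both strands, so that a match on the other strand reads CGTCA or ATTGG.
H2-K1 (chr17:34000298-34000597, minus strand): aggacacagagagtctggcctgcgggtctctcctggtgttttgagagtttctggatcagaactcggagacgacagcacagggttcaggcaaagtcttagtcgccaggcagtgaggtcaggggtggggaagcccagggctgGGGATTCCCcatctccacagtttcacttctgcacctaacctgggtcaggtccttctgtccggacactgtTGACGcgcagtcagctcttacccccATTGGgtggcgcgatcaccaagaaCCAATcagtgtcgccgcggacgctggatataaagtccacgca
H2-D1 (chr17:35262844-35263143, plus strand): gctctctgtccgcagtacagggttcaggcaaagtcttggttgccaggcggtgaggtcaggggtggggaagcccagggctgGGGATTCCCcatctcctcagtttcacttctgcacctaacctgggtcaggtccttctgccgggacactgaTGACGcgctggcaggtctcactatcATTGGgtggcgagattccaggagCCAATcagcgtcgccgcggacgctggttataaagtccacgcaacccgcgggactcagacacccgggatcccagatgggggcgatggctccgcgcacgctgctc
B2m (chr2:122147437-122147736, plus strand): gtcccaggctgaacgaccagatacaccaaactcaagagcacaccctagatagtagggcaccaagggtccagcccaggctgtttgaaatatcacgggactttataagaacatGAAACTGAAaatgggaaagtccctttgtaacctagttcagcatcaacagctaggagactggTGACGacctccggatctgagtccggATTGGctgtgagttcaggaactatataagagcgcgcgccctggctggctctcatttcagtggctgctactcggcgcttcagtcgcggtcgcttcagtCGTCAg
Tap1 (chr17:34187306-34187605, plus strand): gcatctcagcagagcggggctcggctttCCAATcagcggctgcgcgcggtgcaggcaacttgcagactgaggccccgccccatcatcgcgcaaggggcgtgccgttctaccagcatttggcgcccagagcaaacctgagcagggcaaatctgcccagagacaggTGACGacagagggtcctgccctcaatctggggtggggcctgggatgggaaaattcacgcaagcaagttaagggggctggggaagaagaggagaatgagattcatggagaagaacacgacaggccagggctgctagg

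The H2-K1, H2-D1 and B2m windows each held TGACG followed by ATTGG, with their first bases 25 bases apart. This spacing was chosen after the windows had been seen, and 31 of all 32851 windows, or 0.0944%, held the pair at that distance. The κB site lay in the windows of H2-K1 and H2-D1 and in 0.353% of all windows. The exact pattern GAAANNGAA, the interferon element core, lay in the window of B2m, and 8.56% of all windows held it. Other forms of the interferon element were not searched for, so a window without a match, such as that of H2-K1 or H2-D1, may still hold the element. TGACG alone was found in 5 members and 20.8% of all windows, and CCAAT in 6 members and 37.4% of all windows. The H2-K1 and H2-D1 windows aligned over 228 columns, of which 206, or 90.4%, were identical. The Tap1 window overlapped that of Psmb9 by 275 bases on opposite strands. These matches describe letters in the windows and say nothing about binding in these samples.

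Values are TPM, a level already scaled for transcript length and for the total of each library. The tables give no read depth; from 12345 to 14384 symbols per library had at least 1 TPM. Tumour and CD8 tables hold different sets of gene entries. All 3 CD8 control tables carry value columns headed as mannose samples. The sample labels were followed, and the direction of every CD8 difference below rests on them. As a check of the sort, Cd8a, which encodes a chain of the CD8 coreceptor, had 285, 378 and 564 TPM in CD8 mannose 1 to 3 and 591, 570 and 586 TPM in CD8 control 1 to 3, against 0.07 to 7.14 TPM in the 10 tumours. The tumours held the epithelial keratin Krt8 at 1096 to 1399 TPM under mannose and 1151 to 1803 TPM in controls, while Epcam, a surface marker of many carcinomas, was at 0.24 TPM or below in all 10. The CD8 libraries also held 11 of 11 macrophage and monocyte markers, with summed TPM of 1161 to 1527 under mannose and 4175 to 4498 in controls. Use of the 35 T cell receptor beta V segment genes was nearly the same in CD8 mannose 1 and 2 (r = 0.995 across segments) and in CD8 control 1 and 2 (r = 0.999), and in every other pair it correlated at 0.267 to 0.763. The highest of these other pairs crossed the treatments, with CD8 control 3 at 0.758 and 0.763 with CD8 mannose 1 and 2. With CD8 control 1 and 2 it gave 0.298 and 0.309.

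In whole tumours the chains of the class I molecule were the most abundant members and differed little in mean between the treatments. H2-K1 had 2736, 1837, 3077, 1573 and 1720 TPM in mannose tumours 1 to 5, and 2122, 2054, 2056, 1625 and 3353 TPM in control tumours 1 to 5. B2m had 3572, 2537, 4038, 2535 and 2451 TPM in the mannose tumours and 2876, 3135, 2497, 2398 and 3589 TPM in the control tumours. For both genes the highest values came from mannose 1, mannose 3 and control 5, and the treatment groups overlapped. H2-D1 averaged 911 ± 299 TPM in mannose tumours and 931 ± 291 TPM in control tumours (SD, n = 5 each). The heavy chain genes are close copies of other H2 genes, and how the authors' processing divided reads among such copies is not given in the sources used here.

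The transporter and loading genes were present at lower levels and spread more widely. Tap1 had 75.3, 35.7, 121, 28.8 and 24.2 TPM in mannose tumours 1 to 5 and 19.0, 50.8, 53.2, 25.1 and 106 TPM in control tumours 1 to 5. The highest and lowest Tap1 values in each treatment were thus several-fold apart, and the ranges of the treatments covered each other almost completely. Tap2 ranged over 23.6 to 75.3 TPM under mannose and 24.3 to 70.5 TPM in controls, and Tapbp over 77.0 to 252 TPM under mannose and 79.8 to 234 TPM in controls.

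The inducible proteasome subunits and the regulator spread in a like way. Psmb8, which replaces Psmb5, had 95.9, 60.5, 182, 51.2 and 49.3 TPM in mannose tumours 1 to 5 and 38.9, 67.8, 83.8, 44.2 and 86.4 TPM in control tumours 1 to 5. Psmb9, which replaces Psmb6, had 112, 44.7, 175, 32.9 and 34.2 TPM in the mannose tumours and 35.8, 65.7, 63.1, 35.7 and 128 TPM in the control tumours. Mannose 3 held the highest value of both genes, and the lower mannose tumours lay within the control range or just below it. Psmb10, which replaces Psmb7, averaged 104 ± 50.7 TPM in mannose tumours and 88.7 ± 27.1 TPM in control tumours (SD, n = 5 each). Nlrc5 was the least abundant member, with 23.8, 11.2, 33.3, 14.4 and 9.30 TPM in mannose tumours 1 to 5 and 5.95, 21.96, 16.8, 10.0 and 28.2 TPM in control tumours 1 to 5.

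**Figure D1:**
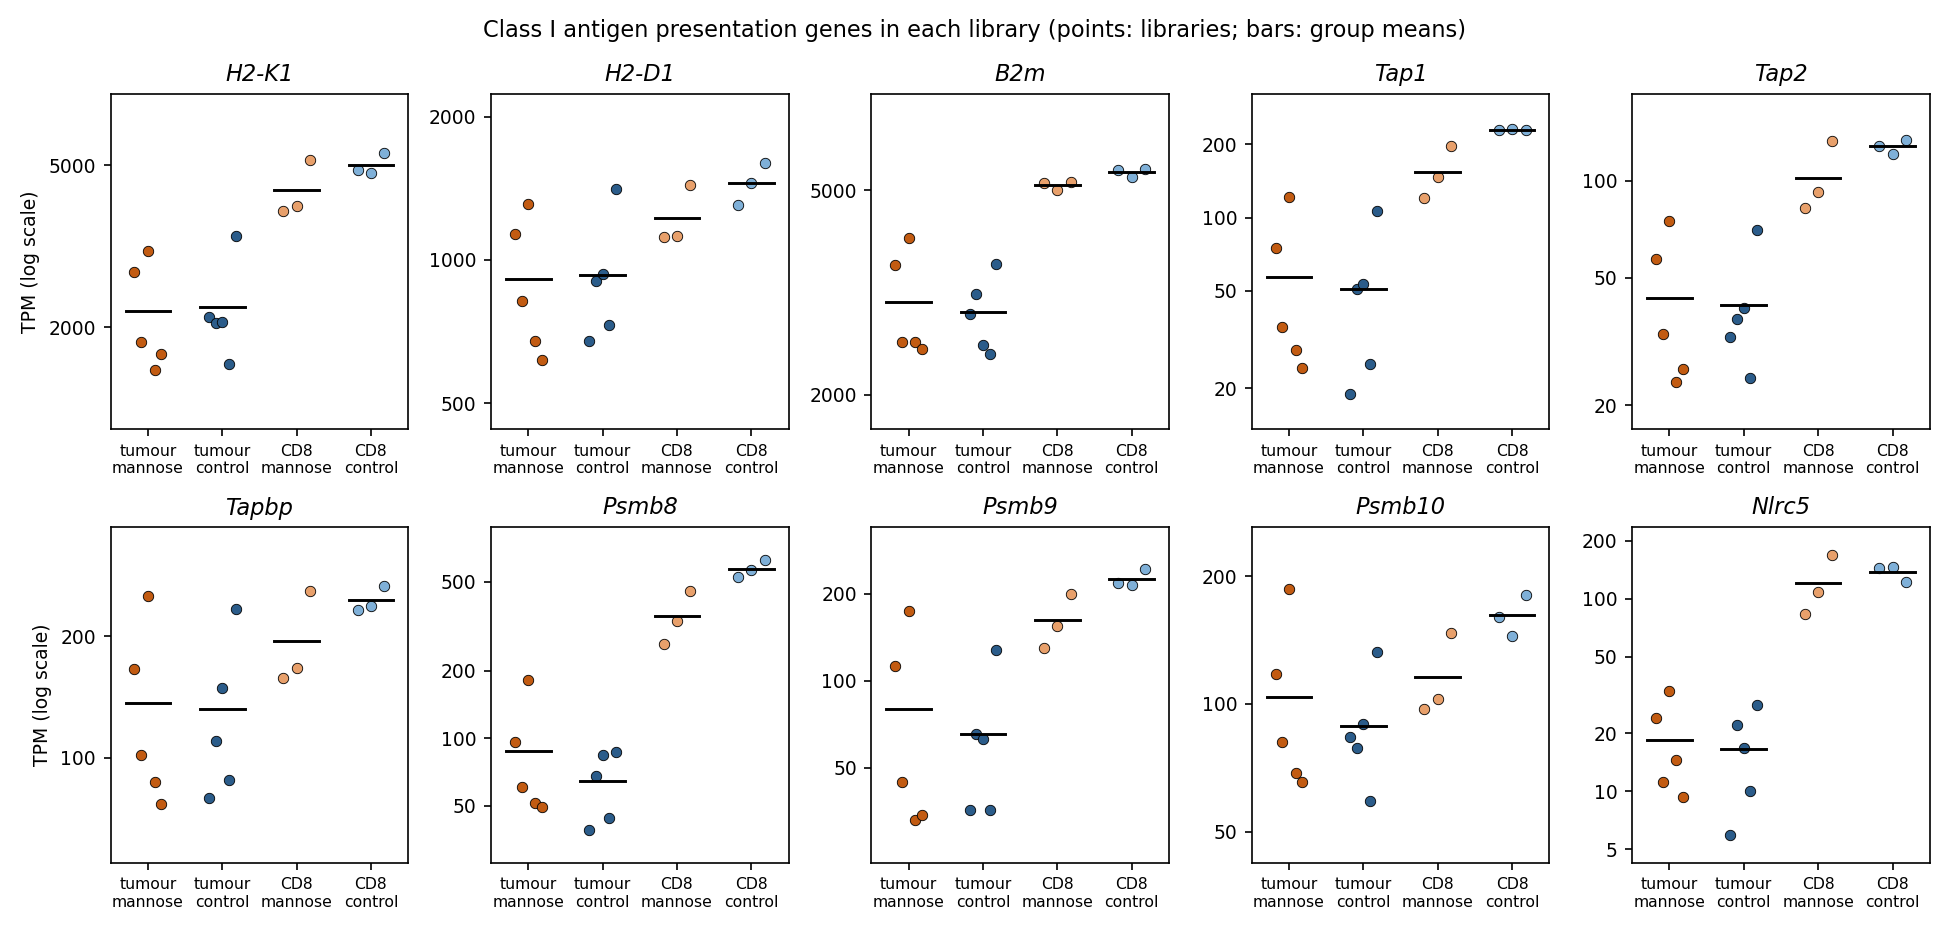
TPM of each member on a log scale, with 1 panel per gene, 1 point per library and a bar at the group mean. In tumours the groups overlap for all 10 genes, and in the CD8 libraries Tap1, Psmb8, Psmb9 and B2m have all mannose points below all control points.

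The comparison of mannose with control tumours asked whether the supplement changed class I presentation in the tissue. None of the 10 members was called by limma on log2(TPM + 1) at a Benjamini-Hochberg adjusted p under 0.05, where 0 of 13282 genes, or 0%, were called in either direction. At an unadjusted p under 0.05 there were 827 genes (6.23%) and no member. No member had groups without overlap, where 1.51% of all genes had mannose wholly higher and 0.128% wholly lower. Of the members 8 had positive and 2 negative differences, with a median of 0.08 on the log2 scale beside 0.12 over all genes tested. The largest difference was that of Psmb8, at 0.33 (95% interval -0.46 to 1.11, adjusted p = 0.82). The interval was narrowest for B2m, at 0.05 (-0.32 to 0.42), and widest for Tap1, at 0.14 (-0.98 to 1.27), so changes of up to about these bounds cannot be told from none. H2-K1 differed by -0.04 (-0.54 to 0.45, adjusted p = 0.964). Without control 1 and mannose 3, the libraries that earlier results of these data had set apart, all 10 differences were negative, from -0.48 for Tap1 to -0.07 for B2m, and none was called. Mannose 3 was the highest mannose tumour for every member, and control 1 the lowest of all tumours for 3. Leaving out mannose 3 lowers every difference by construction, so the shared sign is no separate result.

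Most members spread widely within each treatment in tumours. The within-group standard deviation on the log2 scale was 0.96 for Tap1, 0.93 for Psmb9, 0.78 for Nlrc5 and 0.67 for both Psmb8 and Tapbp, against a median of 0.28 over the 13282 genes tested. Tap1 was more variable than 98.0% of those genes. The constitutive subunits that the inducible ones replace had small values, at 0.14 for Psmb5, 0.10 for Psmb6 and 0.12 for Psmb7. B2m, at 0.29, was close to the median gene. The same 3 tumours, mannose 1, mannose 3 and control 5, held the top 3 values of all 10 members, with mannose 3 highest for 8 of them and control 5 highest for H2-K1 and H2-D1.

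Across the 10 tumours the members varied together. Over their 45 pairs, Pearson's r of log2(TPM + 1) ran from 0.726 for H2-K1 with Nlrc5 to 0.98 for H2-K1 with Tap2, with a median of 0.911, given as a description. The genes whose pattern was most like the mean of the members, among 9516 genes with a mean of at least 5 TPM, were Batf2 (r = 0.988), Gbp2 (r = 0.981), Dhx58 (r = 0.98), Tapbpl (r = 0.978), Irf1 (r = 0.977), Igtp (r = 0.977), Gbp2b (r = 0.976) and Rnf213 (r = 0.975). Gbp2, Gbp2b and Igtp encode interferon-inducible GTPases, Irf1 is a transcription factor of the interferon gamma response, and Tapbpl encodes a relative of tapasin that edits peptides. Gbp2 ran from 5.47 to 190.0 TPM over the tumours.

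The members were set against the level of 9 T cell markers, the mean log2(TPM + 1) of Cd3d, Cd3e, Cd3g, Cd2, Cd5, Lck, Trac, Cd8a and Cd8b1, over the 10 tumours. All 10 correlated positively with it, with Pearson's r between 0.772 for H2-K1 and 0.974 for Psmb8 and Spearman's rho between 0.661 and 0.939. Positive correlations were common, with a median r of 0.407 over all 13273 other genes tested, of which 6.7% had r and 14.0% had rho at or above the lowest member's. By permutation tests with Benjamini-Hochberg adjustment over those genes, 6 members passed by r, where 2.22% of all genes passed with a positive r. These were Tap1, Psmb8, Tapbp, Psmb9, Nlrc5 and H2-D1, with adjusted p of 0.00804 to 0.0336. No member passed by rho (adjusted permutation p 0.0871 to 0.279), where 4 of all genes did with a positive rho. Tap1 gave r = 0.955 (permutation p = 2e-05, adjusted p = 0.00804) and rho = 0.915 (permutation p = 6e-04, adjusted p = 0.104). Without mannose 3 and control 1, the tumours farthest from the median T cell level, r was 0.855 to 0.949. In bulk tissue fewer cells of a type and less RNA per cell cannot be told apart.

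Ifng, the gene of interferon gamma, was also positively correlated with all 10 members, with r between 0.81 for H2-K1 and 0.933 for B2m and rho between 0.539 and 0.891. Of all 13282 genes, 1.75% had r and 15.8% had rho at or above the lowest member's. None of the members passed by r or by rho (adjusted permutation p from 0.0797 by r and from 0.164 by rho), nor did any other gene, and the 10 unadjusted permutation p by r were 3.6e-04 to 0.00517. Without mannose 1 and mannose 3, r was 0.584 to 0.878. Ifng itself was low, with a median of 0.11 TPM in mannose tumours, where 1 tumour was listed at 0 and the highest had 2.17 TPM, and a median of 0.15 TPM in control tumours, over a range of 0.04 to 0.76 TPM. The macrophage and monocyte level correlated with the members at r between 0.424 and 0.873, of which Psmb8 alone passed by r (adjusted permutation p = 0.0313, where 6.68% of all genes passed with a positive r) and none by rho, and r was 0.138 to 0.662 without mannose 3 and control 1. The carcinoma and epithelial level gave r between 0.085 and 0.526, and none passed by either measure (adjusted permutation p from 0.33 by r and from 0.207 by rho). With 5 tumours in each treatment, correlations within a treatment were not computed.

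**Figure D2:**
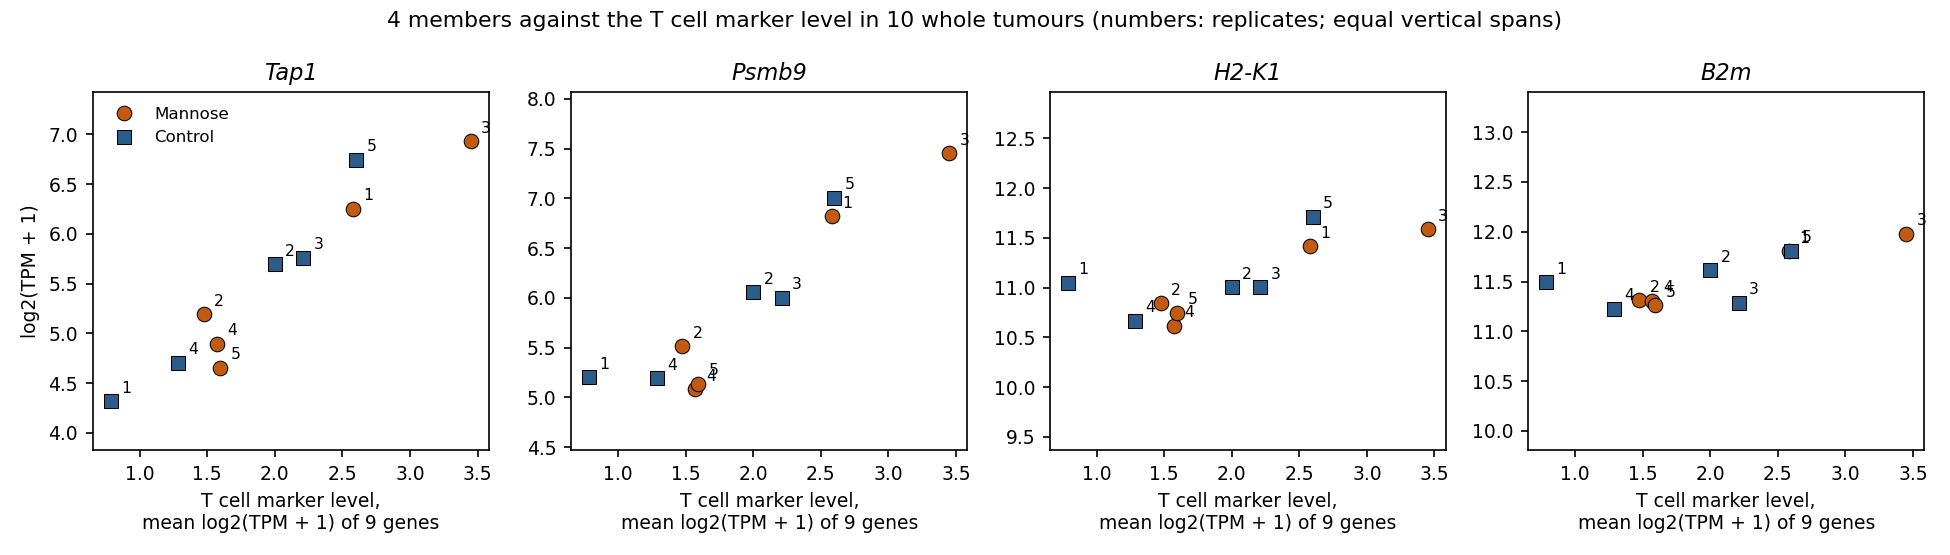
Log2(TPM + 1) of Tap1, Psmb9, H2-K1 and B2m against the T cell marker level, 1 numbered point per whole tumour, circles for mannose and squares for control, with the same vertical span in each panel. Both treatments lie along 1 band, steep for Tap1 (r = 0.955) and Psmb9 (r = 0.933) and shallow for H2-K1 (r = 0.772) and B2m (r = 0.781).

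Other genes of the pathway were read from 5 lists. In tumours none of the 75 genes tested from these lists was called. Mr1, a class I-like gene that presents vitamin metabolites, averaged 4.22 ± 0.695 TPM in mannose tumours and 2.63 ± 0.93 TPM in control tumours (SD, n = 5 each). Its groups did not overlap, with mannose higher, at a log2 difference of 0.56 (adjusted p = 0.754). Jak2, a kinase of the interferon gamma receptor, was the only other gene of the lists without overlap and was chosen after its values were seen, with 25.6 to 31.2 TPM in mannose tumours and 14.3 to 24.9 TPM in control tumours (log2 difference 0.33, adjusted p = 0.754). Of all 13282 genes tested, 1.51% likewise had mannose wholly higher. Hfe, the class I-like gene of iron control, averaged 12.7 ± 1.34 TPM and 7.92 ± 3.37 TPM in the same order, with overlap (log2 difference 0.69, adjusted p = 0.754). The regulators Atf1 and Suz12, the peptidases Tpp2 and Nrd1, the proteasome subunits Psma4 and Psma5, and the receptor genes Klrc1 and Lilrb4a had the smallest p of their lists, and their log2 differences were between 0.15 and 0.60 with adjusted p of 0.754 to 0.794.

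In the sorted CD8 libraries all 10 members were lower in mean under mannose, and 3 of them fell: Tap1, Psmb8 and Psmb9. Background calls in this comparison were many, with 11.7% of 14280 genes called lower and 23.2% called higher (1674 and 3306 genes). The split depended on the scaling, with 2488 lower and 2643 higher by median-ratio scaling and 2305 lower and 2673 higher by quantile normalization. Tap1 had 120, 146 and 196 TPM in CD8 mannose 1 to 3, against 228, 230 and 230 TPM in CD8 control 1 to 3. Psmb8 had 263, 334 and 453 TPM in CD8 mannose 1 to 3, against 523, 564 and 627 TPM in CD8 control 1 to 3. Psmb9 had 130, 155 and 200 TPM under mannose, against 217, 215 and 243 TPM in controls. For each of the 3 genes every mannose library lay below every control library, and mannose 3 lay nearest to the controls.

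By limma with Benjamini-Hochberg adjustment over all genes, Psmb8 fell by 0.74 on the log2 scale (SE 0.191, adjusted p = 0.0246). Tap1 fell by 0.60 (SE 0.168, adjusted p = 0.0317) and Psmb9 by 0.50 (SE 0.155, adjusted p = 0.0456). Psmb10, which had 97.2, 103 and 147 TPM under mannose against 160, 145 and 181 TPM in controls, had a log2 difference of -0.50 and missed the threshold (adjusted p = 0.0592). Mannose 3 lay just within the control range of Psmb10. The median difference of the 10 members was -0.36, beside 0.09 over all genes. Groups did not overlap, with mannose lower, for 4 members and for 18.1% of all genes.

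The chains of the class I molecule showed smaller differences that did not pass the test. H2-K1 had 3865, 3978 and 5163 TPM in CD8 mannose 1 to 3 and 4862, 4788 and 5358 TPM in CD8 control 1 to 3, a log2 difference of -0.22 (95% interval -0.52 to 0.09, adjusted p = 0.232). H2-D1 averaged 1226 ± 184 TPM under mannose and 1450 ± 147 TPM in controls (SD, n = 3 each; log2 difference -0.25, adjusted p = 0.178). B2m was nearly level within groups, with 5154, 5000 and 5175 TPM under mannose and 5478, 5310 and 5506 TPM in controls, and its groups did not overlap although its log2 difference was -0.09 (95% interval -0.26 to 0.08, adjusted p = 0.385). Tap2 (-0.35), Tapbp (-0.37) and Nlrc5 (-0.25) overlapped between groups, with adjusted p of 0.158, 0.172 and 0.459. Nlrc5 was the most variable member, with 83.0, 109 and 168 TPM under mannose and 143, 146 and 122 TPM in controls, and CD8 mannose 3 held the highest value of all.

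**Figure D3:**
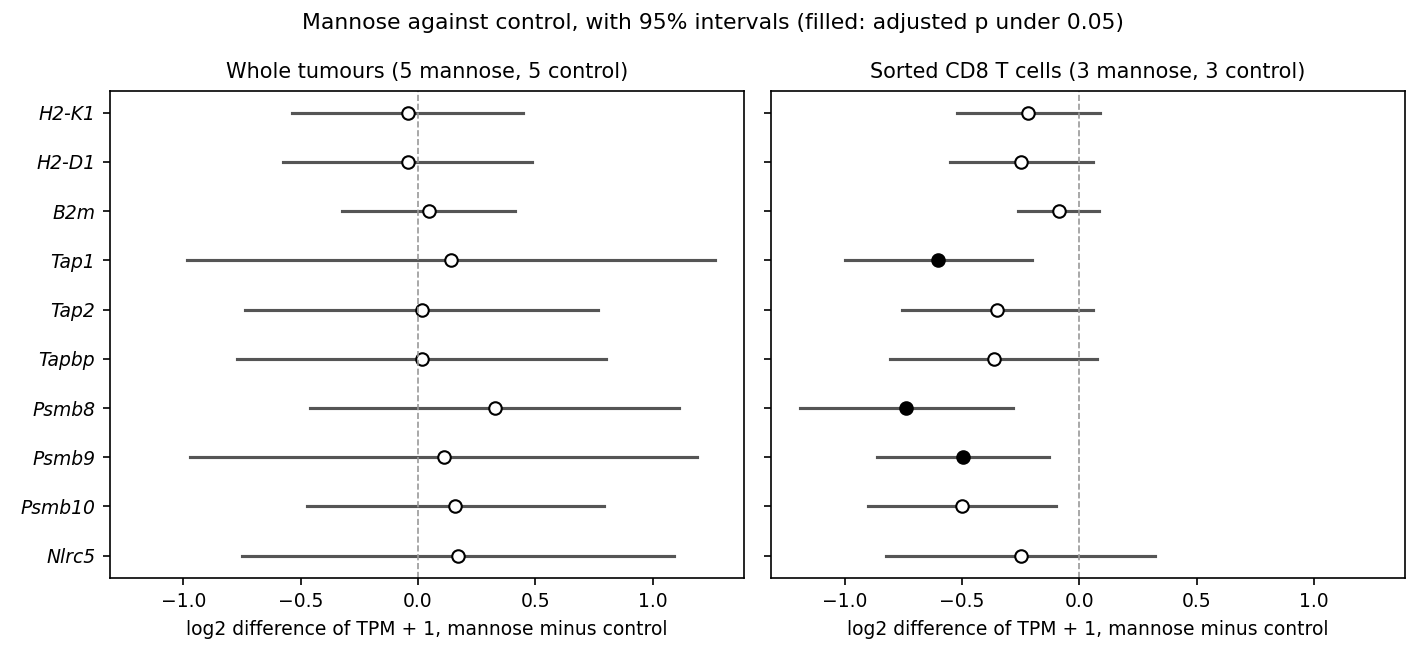
Log2 difference of TPM + 1, mannose minus control, for each member with its 95% interval from limma, in whole tumours and in sorted CD8 libraries; filled points have an adjusted p under 0.05. All tumour intervals include 0, and in the CD8 libraries Tap1, Psmb8 and Psmb9 have filled points below 0.

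These calls depended on single libraries, on the scaling and on the filter and fit used. Psmb8 alone was called without CD8 control 1, no member was called without CD8 control 2, CD8 control 3, CD8 mannose 1 or CD8 mannose 2, and 9 were called lower without CD8 mannose 3. The median of the members was -0.22 without CD8 mannose 1 and -0.57 without CD8 mannose 3. Without CD8 mannose 1 the differences of Tap1, Psmb8 and Psmb9 were -0.44, -0.55 and -0.35, and without CD8 mannose 3 they were -0.79, -0.94 and -0.66. No member was called with quantile normalization, with no filter on low values, with all 16 libraries in 1 fit, or with the library pairs of like V segment use averaged. The fit of all 16 libraries uses 1 spread per gene for both tissues. For Tap1 the within-group standard deviation on the log2 scale was 0.96 in tumours and 0.25 in CD8 libraries. The part of that shared spread in the lost calls was not tested.

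Marker levels of several cell types moved with treatment in the CD8 libraries. Summed T cell markers (9 of 9 detected) had 2376, 3042 and 4614 TPM in CD8 mannose 1 to 3 and 4808, 4583 and 4946 TPM in CD8 control 1 to 3. The mannose libraries stood in that same order, with mannose 3 highest, for all 10 members except B2m, in which mannose 2 was lowest. Of the 9 T cell markers 2 were called lower, where 11.7% of all genes were. All 9 had negative differences, with a median of -0.64 on the log2 scale beside -0.36 for the members and 0.09 over all genes. Groups did not overlap, with mannose lower, for 7 of these markers and for 18.1% of all genes. All 11 macrophage and monocyte markers fell under mannose, to 1161 to 1527 TPM in sum against 4175 to 4498 TPM in controls. Of the 7 carcinoma and epithelial markers 3 rose and 1 fell, with sums of 1608 to 2459 TPM under mannose and 236 to 530 TPM in controls, and 5 of 6 fibroblast markers rose, with sums of 233 to 362 TPM and 44.0 to 128 TPM in the same order. Scaling each library to its summed T cell markers moves all its genes alike. The median difference was then 0.21 for the members and 0.60 for all genes, and no member was called. The part of cell makeup in these differences was not tested.

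Ratios within a library do not depend on its scaling. The inducible over constitutive ratio Psmb8 over Psmb5 was 2.51, 3.04 and 3.81 in CD8 mannose 1 to 3, against 4.84, 4.65 and 5.35 in CD8 control 1 to 3. The groups did not overlap, and the 2-sided exact permutation p was 0.1, the smallest that 3 libraries against 3 allow (0.612 adjusted over 10 ratio comparisons). Psmb9 over Psmb6 averaged 0.663 ± 0.121 under mannose and 0.796 ± 0.0468 in controls, and Psmb10 over Psmb7 averaged 0.796 ± 0.174 under mannose and 1.06 ± 0.116 in controls (SD, n = 3 each, exact permutation p = 0.2 for both). H2-K1 over B2m (0.848 under mannose and 0.921 in controls) and H2-D1 over B2m (0.24 under mannose and 0.267 in controls) overlapped, with exact permutation p of 0.4 and 0.3.

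In tumours the same ratios overlapped for all 5 pairs of genes. Psmb8 over Psmb5 averaged 0.525 ± 0.315 in mannose tumours and 0.367 ± 0.113 in control tumours (SD, n = 5 each, exact permutation p = 0.357). Mannose 3 was the only tumour above 1, at 1.06, and without it the mean log2 difference was 0.11, against 0.41 with all 10 tumours. Psmb9 over Psmb6 averaged 0.201 ± 0.15 under mannose and 0.16 ± 0.0902 in controls, and Psmb10 over Psmb7 averaged 0.768 ± 0.372 under mannose and 0.674 ± 0.236 in controls (exact permutation p of 0.746 and 0.698). The mean log2 difference of Psmb9 over Psmb6 turned negative without mannose 3 (-0.15) or control 1 (-0.02), and that of Psmb10 over Psmb7 without mannose 3 (-0.11).

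**Figure D4:**
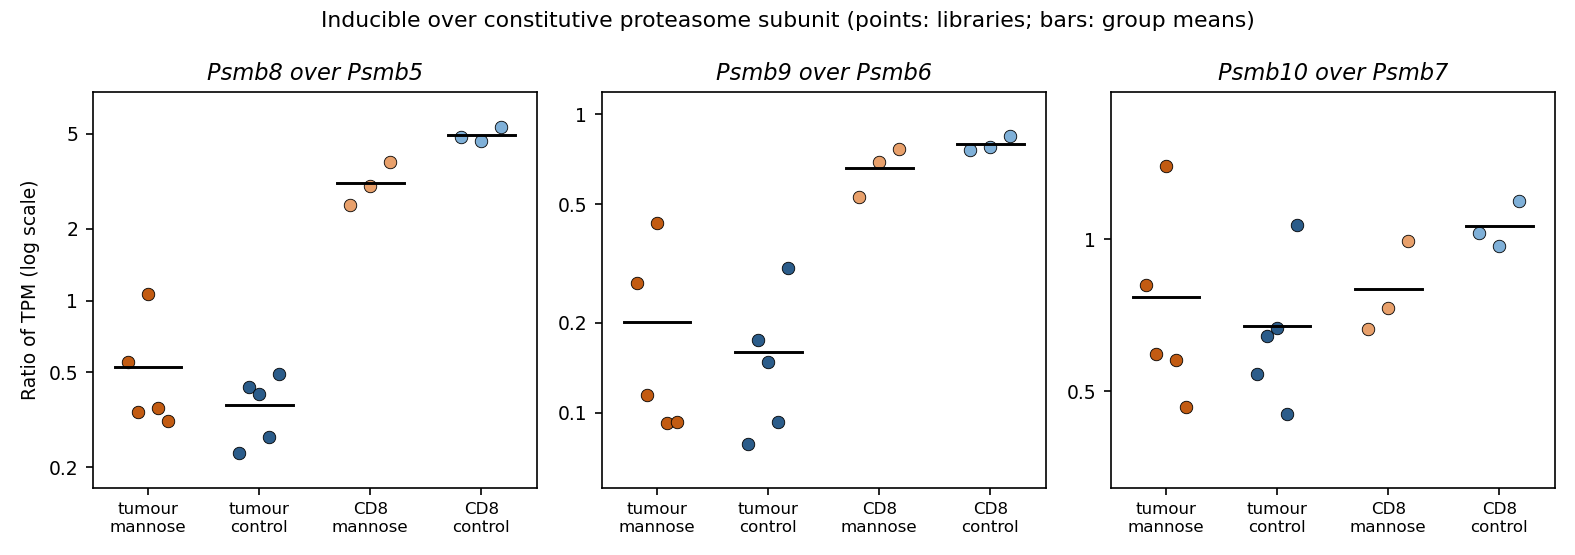
Ratio of TPM of each inducible proteasome subunit to the constitutive subunit it replaces, on a log scale, 1 point per library with a bar at the group mean. Psmb8 over Psmb5 lies between 2.51 and 3.81 in CD8 mannose libraries, between 4.65 and 5.35 in CD8 control libraries, and at 1.06 or below in all tumours.

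The wider pathway in the CD8 libraries showed falls in 13 genes and rises in 2 of the 80 tested, where 11.7% of all genes fell and 23.2% rose. Among the other class I and class I-like genes 4 of 17 fell and none rose. H2-M2 averaged 5.76 ± 0.375 TPM under mannose and 18.4 ± 0.334 TPM in controls (log2 difference -1.52, adjusted p = 3.16e-04), and H2-Q6 averaged 133 ± 35.5 TPM and 217 ± 16.7 TPM in the same order (log2 difference -0.73, adjusted p = 0.0221). H2-T24 (-0.89) and Cd1d1 (-0.86), which presents lipids to NKT cells, also fell. Cd1d1 and H2-T24 each lost the call in 5 of the 6 fits without 1 library, all but that without CD8 mannose 3. H2-Q6 lost it without CD8 control 2, CD8 control 3 or CD8 mannose 2. Reads of the H2-Q, H2-T and H2-M genes may be shared among near copies, so these values are uncertain.

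In the loading and trimming list 2 of 12 genes rose, a smaller share than the 23.2% of all genes, and none fell. Canx, which encodes the chaperone calnexin that folds new heavy chains, averaged 334 ± 33.1 TPM under mannose and 234 ± 31.1 TPM in controls (log2 difference 0.52, adjusted p = 0.018). Npepps, a cytosolic aminopeptidase, averaged 67.8 ± 12.4 TPM and 34.3 ± 0.891 TPM in the same order (log2 difference 0.95, adjusted p = 0.00378). Canx lost its call without CD8 mannose 1 or CD8 mannose 2. In the proteasome list 2 of 18 genes fell, near the 11.7% of all genes, and none rose; those that fell were the core subunits Psmb2 (-0.29, adjusted p = 0.0401) and Psmb3 (-0.45, adjusted p = 0.0271). Psmb3 kept its call in the fit without CD8 mannose 3 and lost it in the other 5, and Psmb2 lost its call in 4, without CD8 control 1, CD8 control 3, CD8 mannose 1 or CD8 mannose 2.

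Of the 24 regulators 5 fell and none rose, where 11.7% of all genes fell and 23.2% rose. Ifngr2, the signalling chain of the interferon gamma receptor, averaged 8.89 ± 2.15 TPM under mannose and 18.9 ± 3.12 TPM in controls (log2 difference -1.02, adjusted p = 0.00986), and Ifngr1, its ligand-binding chain, averaged 284 ± 74.7 TPM and 461 ± 29.4 TPM in the same order (log2 difference -0.73, adjusted p = 0.0216). Irf9 (-0.49) and Stat2 (-0.57), which form the factor activated by type I interferon, and Nfkb1 (-0.54), a subunit of NF-κB, fell as well. Ifngr1 lost its call without CD8 control 1, 2 or 3 or CD8 mannose 2, Stat2 without CD8 control 2 or 3 or CD8 mannose 1 or 2, and Irf9 without CD8 mannose 2. The last list held 9 receptors for class I or related to them, of which the inhibitory receptor genes Pirb and Lilrb4a fell, beside the same 11.7% of all genes. Pirb encodes a receptor that binds class I, whereas class I is not an established ligand of the product of Lilrb4a. Pirb averaged 10.1 ± 2.29 TPM under mannose and 42.4 ± 1.06 TPM in controls (log2 difference -1.98, adjusted p = 4.73e-04), and Lilrb4a averaged 203 ± 46.5 TPM and 561 ± 72.8 TPM in the same order (log2 difference -1.48, adjusted p = 0.00194). Pirb is known from myeloid cells and B cells, and the macrophage and monocyte markers fell in the same libraries; their part in the result was not tested.

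Over the 6 CD8 libraries the genes most like the mean of the members, among 10011 compared, were Cd3g, Zadh2, Arid5a, Cd48, Tbx21, Rasd2, Cx3cr1 and Fasl, with r of 0.998 or more. The libraries share their groups and like pairs, so these values describe 6 points only. Cd3g, a chain of the T cell receptor complex, ran from 808 to 1543 TPM. Tbx21, a transcription factor of cytotoxic T cells, ran from 17.7 to 56.2 TPM.

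Whether the CD8 response to mannose differed from the tumour response was tested by an interaction contrast over all 16 libraries. Its standard errors include the tumour groups and rest on 1 spread per gene over both tissues, and the members varied more in tumours. For Tap1 the SE was 0.735 in this contrast and 0.168 in the fit of the CD8 libraries alone. No member passed this test by limma, where 18.7% of 15498 genes were called (11% with positive and 7.64% with negative values). At an unadjusted p under 0.05 there were 31.2% of all genes and no member. All 10 values were negative, with a median of -0.40 beside 0.00 over all genes. That median was -0.15 without tumour mannose 3, -0.24 without CD8 mannose 1, -0.65 without CD8 mannose 3 and -0.22 with quantile normalization. Psmb8 had the largest, at -1.06 (95% interval -2.19 to 0.06, adjusted p = 0.184), and B2m the smallest, at -0.13 (-0.63 to 0.36, adjusted p = 0.754). Of the 80 pathway genes 9 passed, 8 with negative values and Npepps with a positive value. All 11 macrophage and monocyte markers passed with negative values in the same test. Pirb (-2.23, adjusted p = 4.32e-04), Lilrb4a (-1.68, adjusted p = 4.91e-04) and Ifngr2 (-1.24, adjusted p = 0.00154) had the smallest adjusted p.

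CD8 control libraries were set beside control tumours to place the members' levels in the sorted cells and in the tissue. All 10 members were higher in the CD8 libraries, where 40.1% of 15498 genes were called higher and 28.7% lower (6220 and 4451 genes). By median-ratio scaling 5587 genes were higher and 5354 lower, and by quantile normalization 5312 and 5783, while the median over all genes moved to 0.00 and -0.07 on the log2 scale, from 0.17 before; 8 and 9 members were then called higher. Markers of other immune cells were also higher in the CD8 controls. This held for 9 of 11 macrophage and monocyte markers, with summed TPM of 4175 to 4498 in CD8 controls and 1651 to 2906 in control tumours and a median log2 difference of 1.65, and for 3 of the 4 dendritic cell markers tested, with sums of 131 to 284 TPM in CD8 controls and 10.8 to 25.4 TPM in control tumours. Their part in the differences below was not tested. Psmb8 averaged 571 ± 52.5 TPM in CD8 controls and 64.2 ± 21.98 TPM in control tumours (SD, n = 3 and n = 5), a 9.19-fold difference on the scale of TPM + 1 (log2 3.20, adjusted p = 1.68e-06). Nlrc5 averaged 137 ± 13.4 TPM in CD8 controls and 16.6 ± 8.93 TPM in control tumours, an 8.86-fold difference (log2 3.15). Tap1 followed at 5.29-fold, Psmb9 at 3.79-fold and Tap2 at 3.27-fold.

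The chains of the class I molecule differed less between the sorted cells and the tissue. H2-K1 averaged 5003 ± 310 TPM in CD8 controls and 2242 ± 652 TPM in control tumours (2.30-fold), and B2m averaged 5432 ± 106 TPM and 2899 ± 486 TPM in the same order (1.89-fold). Tapbp (2.00-fold), Psmb10 (1.87-fold) and H2-D1 (1.61-fold) completed the set. Groups did not overlap for 8 members, and those of H2-D1 and Tapbp did, while 37.9% of all genes did not overlap with CD8 higher. H2-D1 lost its call without tumour control 1, tumour control 4, CD8 control 2 or CD8 control 3, Tapbp without tumour control 1, tumour control 4 or any CD8 control, and Psmb10 without CD8 control 3. Sorting, library set and annotation differ between the tissues together and cannot be told apart.

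Of the replaced subunits, Psmb5 and Psmb6 went the other way and Psmb7 did not. Psmb5 averaged 116 ± 6.78 TPM in CD8 controls and 174 ± 19.5 TPM in control tumours (log2 difference -0.58, adjusted p = 1.10e-04). Psmb6 averaged 282 ± 5.79 TPM and 412 ± 33.4 TPM in the same order (log2 difference -0.54, adjusted p = 4.80e-05). Psmb7 averaged 152 ± 3.09 TPM in CD8 controls and 133 ± 12.7 TPM in control tumours. In the proteasome list 7 of 18 genes were higher and 5 lower, near the shares over all genes, of which 40.1% were higher and 28.7% lower. Of the other class I genes 14 of 17 were higher and 2 lower. H2-Q7 averaged 475 ± 32.6 TPM in CD8 controls and 14.0 ± 7.57 TPM in control tumours (log2 difference 5.15) and H2-Q6 averaged 217 ± 16.7 TPM and 3.75 ± 3.32 TPM in the same order, whereas H2-Q1 averaged 16.6 ± 2.82 TPM in CD8 controls and 408 ± 123 TPM in control tumours (log2 difference -4.51, adjusted p = 1.99e-10). These close copies may share reads, so how the total divides among them is uncertain. Of the regulators 19 of 24 were higher and none lower, with Ifng at 128 ± 21.6 TPM in CD8 controls and 0.312 ± 0.325 TPM in control tumours. All 9 genes of the receptor list were higher, among them Pirb and Lilrb4a, in the libraries where the macrophage and monocyte markers were higher, and Klrc1 at 655 ± 52.8 TPM and 0.946 ± 0.63 TPM in the same order, and 8 of 12 loading and trimming genes were higher and 2 lower.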

How the data were processed

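RNA sequencing values were taken as the authors deposited them, 1 table per library with gene symbols and TPM, a unit read from values that summed to between 993815 and 997809 per library. Per the submitters' processing notes, fastp, HISAT, RSEM and build GRCm39 were used; versions, annotation and read counts are not given in the sources used here. Each tumour library has 54013 entries and each CD8 library 55438 entries, and entries with the same symbol were summed. Differences of log2(TPM + 1) were tested with limma 3.58.1 (R 4.3.3; variance trend, empirical Bayes), keeping genes at 1 TPM in at least 5 tumour libraries or 3 CD8 libraries (3 of all 16 for the interaction and the CD8 to tumour contrast), with Benjamini-Hochberg adjustment over all genes and a threshold of 0.05. Fold changes are on that scale and understate those of low genes. Ratios and correlations were tested by permutation in Python 3.11.15 (scipy 1.17.1; 100000 permutations for correlations). The fit was also run on simulated data with independent noise, which held no like library pairs and no shifts in cell makeup. That check does not cover such features of these data. All 10 members are named in each comparison, as are up to 6 genes per pathway list past the threshold, by smallest adjusted p, or the 2 with the smallest p where none passed. The listed gene Nrdc was matched as Nrd1. The members and lists were chosen with earlier results of these data known.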

Additional observations from a re-analysis of the deposited data

Results flagged for a closer look

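Values were checked for a library far from the rest of its group in 52 groups of 5 tumours, by Dixon's test, which chance alone passes in about 1 group in 20. Of the members, H2-K1 in control tumours stood out, with control 5 at 3353 TPM and the next tumour at 2122 TPM. Among summed marker levels, the highest mannose tumour stood apart for macrophage and monocyte markers (4555 TPM), NK cell markers (9.44 TPM), fibroblast markers (1851 TPM), endothelial markers (64.2 TPM) and skeletal muscle markers (313 TPM). Each of these sums came from mannose 3, so they describe 1 tumour and are not separate observations.

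The response to mannose differed between CD8 libraries and tumours, by limma's interaction test at an adjusted p under 0.05, for 9 of 80 pathway genes and for none of the 10 members, where 18.7% of all genes passed. All 11 macrophage and monocyte markers passed with negative values in the same test (median -2.24), and their part in these values was not tested. The CD8 log2 difference minus the tumour log2 difference was -2.23 for Pirb, -1.87 for H2-M2, -1.68 for Lilrb4a, -1.38 for Hfe, -1.24 for Ifngr2, -1.15 for Cd1d1, -0.94 for Ifngr1, -0.40 for Psmb2 and 0.96 for Npepps. Psmb2 lost its call with quantile normalization and with median-ratio scaling, and H2-M2 with no filter on low values. Psmb2 also lost its call in 11 of 16 fits without 1 library, H2-M2 in 8, Cd1d1 in 3 (without CD8 control 1, CD8 mannose 1 or CD8 mannose 2) and Npepps in 2 (without CD8 mannose 1 or CD8 mannose 2). Pirb, Lilrb4a, Hfe, Ifngr1 and Ifngr2 kept theirs in all 16.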

How the results depend on the processing

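In tumours no member was called in any of 19 alternative fits, and signs near 0 moved. Quantile normalization gave -0.061 for Tap2 and -0.024 for Tapbp, and median-ratio scaling gave -0.08 for B2m, -0.11 for both Tap2 and Tapbp and -0.015 for Psmb9, while the all-gene median moved to -0.005 and 0.005. Array weights gave 0.13 for H2-K1 and 0.056 for H2-D1. Without control 1 and mannose 3 together the differences were -0.065 for B2m, -0.48 for Tap1, -0.28 for Tap2, -0.39 for Tapbp, -0.14 for Psmb8, -0.43 for Psmb9, -0.09 for Psmb10 and -0.36 for Nlrc5. Leaving out 1 library at a time gave ranges of -0.18 to 0.11 for H2-K1, -0.19 to 0.12 for H2-D1, -0.066 to 0.127 for B2m, -0.20 to 0.47 for Tap1, -0.22 to 0.23 for Tap2, -0.24 to 0.25 for Tapbp, 0.02 to 0.49 for Psmb8, -0.25 to 0.39 for Psmb9, -0.08 to 0.32 for Psmb10 and -0.12 to 0.40 for Nlrc5. The log2 ratio differences ranged from 0.11 (without mannose 3) to 0.55 for Psmb8 over Psmb5, from -0.15 to 0.48 for Psmb9 over Psmb6 and from -0.11 to 0.32 for Psmb10 over Psmb7.

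In the CD8 libraries 3 members were called lower, against 0 with no filter, with quantile normalization, in the fit of all 16 libraries, with like pairs averaged and with scaling to T cell markers, 4 with median-ratio scaling, 9 with array weights, and 0 to 9 with 1 library left out. Genes called higher and lower numbered 3306 and 1674, against 5114 and 3517 with array weights, 1091 and 561 with like pairs averaged, 4201 and 402 with T cell scaling, and 1783 to 3211 higher and 912 to 2486 lower with 1 library left out. T cell scaling gave 0.35 for H2-K1, 0.32 for H2-D1, 0.48 for B2m, 0.22 for Tap2, 0.20 for Tapbp, 0.071 for Psmb9, 0.066 for Psmb10, 0.32 for Nlrc5, 0.27 for Psmb2, 0.12 for Psmb3, 0.068 for Irf9 and 0.024 for Nfkb1. The scaling moved the median of all genes to 0.60. Of the other pathway calls, Psmb2, Psmb3 and Ifngr1 were lost with quantile normalization and, with Cd1d1, H2-Q6, H2-T24 and Stat2, with no filter. The fit of all 16 libraries lost Canx, H2-Q6, H2-T24, Irf9, Nfkb1 and Stat2, averaging like pairs lost all but H2-M2, Ifngr2, Nfkb1, Lilrb4a and Pirb, and T cell scaling lost Cd1d1, H2-Q6, H2-T24, Ifngr1, Ifngr2 and Stat2. Single members ranged over -0.35 to -0.14 for H2-K1, -0.37 to -0.17 for H2-D1, -0.10 to -0.07 for B2m, -0.55 to -0.21 for Tap2, -0.59 to -0.23 for Tapbp, -0.68 to -0.39 for Psmb10 and -0.52 to -0.018 for Nlrc5 with 1 library left out, each lowest without CD8 mannose 3 except B2m. For the interaction, leaving out 1 library gave 1139 to 2630 genes higher and 745 to 1604 lower, with no member called. In the contrast of CD8 with tumour controls 7 to 10 members were called higher with 1 library left out, 8 with median-ratio scaling, 9 with quantile normalization or no filter, and all 10 stayed positive in each. The cause of these shifts was not tested.

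Deviations of same-numbered libraries correlated at -0.51 to 0.28 in tumours, within or below the -0.35 to 0.48 of other pairs. In CD8 libraries same-numbered pairs gave 0.06 to 0.16 and other pairs -0.16 to 0.12. With 3 CD8 libraries per group, whether the numbers pair them cannot be told. With the number as a block, 4 members were called lower in CD8 libraries and none in tumours. Averaging like pairs and T cell scaling were chosen with earlier results known. With no read counts, the depth behind low values such as Ifng in tumours is unknown.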
